A study of Mus musculus with 9 samples.

Results

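The 8 genes that make, package, take up and break down the inhibitory transmitters GABA and glycine were followed in tdTomato-labelled neurons of the developing mouse ventral midbrain. They were chosen by symbol from the 32661 nuclear genes in the count tables and comprise Gad1 and Gad2 (GABA synthesis), Slc32a1 (vesicle loading), Slc6a11, Slc6a5 and Slc6a9 (uptake), and Abat and Aldh5a1 (breakdown). All 8 had counts on 8 of the 9 plates, and 7 had counts on the remaining plate, where Slc6a5 was listed at 0.

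Each plate held single cells sorted from VGAT-Cre:Ai14:Pitx3-GFP mice and sequenced by SORT-seq, in which every well of a plate receives 1 cell and CEL-seq2 chemistry tags its molecules for counting. The 7 VGAT plates held tdTomato+ cells (4 plates at E16, embryonic day 16, and 3 at P0, the day of birth), and the 2 VGAT+Pitx3 plates held cells positive for both tdTomato and GFP (1 at E16 and 1 at P0). Every animal carried the same alleles, so the populations differ by the gate and not by genotype. Cre is driven from the VGAT (Slc32a1) gene and switches on tdTomato for good, so the label marks any cell that has ever used this gene, whether or not it still does, and Slc32a1 itself took part in choosing the cells of both populations. Pitx3-GFP marks mainly dopamine neurons, and cells with both labels were collected apart from the others, so their number is not their frequency in the tissue. Brains of several litters were used at each stage. Which plate came from which litter is not given in the sources used here, so p-values measure only the spread between these plates.

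GABA is made from glutamate by a pair of glutamate decarboxylases that are products of separate genes. GAD67, from Gad1, is found throughout the cell and makes much of the basal GABA, and GAD65, from Gad2, is concentrated at nerve terminals. VGAT, from Slc32a1, loads both GABA and glycine into synaptic vesicles. After release GABA is taken up by transporters such as GAT3 (Slc6a11), mostly on astrocytes, while glycine is cleared by GLYT2 (Slc6a5), which defines glycinergic neurons, and GLYT1 (Slc6a9), best known from glia. GABA transaminase (Abat) and succinic semialdehyde dehydrogenase (Aldh5a1) then carry GABA carbon into the tricarboxylic acid cycle.

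In the GENCODE annotation of GRCm38, Gad1 (ENSMUSG00000070880) lies at chr2:70553072-70602014 on the plus strand and Gad2 (ENSMUSG00000026787) at chr2:22622205-22693874 on the plus strand. Slc32a1 (ENSMUSG00000037771) lies on the same chromosome at chr2:158610767-158615748, plus strand. The uptake genes are Slc6a11 (ENSMUSG00000030307, chr6:114131241-114249952, plus), Slc6a5 (ENSMUSG00000039728, chr7:49910146-49963856, plus) and Slc6a9 (ENSMUSG00000028542, chr4:117834506-117875198, plus). Abat (ENSMUSG00000057880) is at chr16:8513429-8621568 on the plus strand and Aldh5a1 (ENSMUSG00000035936) at chr13:24907579-24937661 on the minus strand. Annotated genes on the opposite strand overlap Gad1 (Gad1os), Slc32a1 (Gm14205), Slc6a11 (Gm8132), Slc6a9 (Ccdc24, B4galt2 and Gm17114) and Aldh5a1 (4932702P03Rik and 9330162012Rik). Whether counting used strand is not stated in the sources used here, so reads of such pairs could not be told apart.

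The sequences of the start regions are shown for the 3 genes on which the comparison of the sorted populations turns, Gad1, Gad2 and Slc32a1. Each is the 250 bases before the RefSeq start site (GRCm38.p6, plus strand), written 5′ to 3′, with any match to a searched motif in capitals. They lie at chr2:70561879-70562128 (Gad1), chr2:22622077-22622326 (Gad2) and chr2:158610508-158610757 (Slc32a1).
Gad1: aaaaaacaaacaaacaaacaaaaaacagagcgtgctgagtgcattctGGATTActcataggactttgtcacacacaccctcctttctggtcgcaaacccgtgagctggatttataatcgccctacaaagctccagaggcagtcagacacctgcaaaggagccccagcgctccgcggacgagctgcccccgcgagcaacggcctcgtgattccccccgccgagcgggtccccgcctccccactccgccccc
Gad2: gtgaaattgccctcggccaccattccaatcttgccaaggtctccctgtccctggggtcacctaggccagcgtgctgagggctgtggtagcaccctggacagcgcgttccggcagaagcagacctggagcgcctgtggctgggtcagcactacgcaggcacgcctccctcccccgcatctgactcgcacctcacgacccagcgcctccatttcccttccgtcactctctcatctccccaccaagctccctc
Slc32a1: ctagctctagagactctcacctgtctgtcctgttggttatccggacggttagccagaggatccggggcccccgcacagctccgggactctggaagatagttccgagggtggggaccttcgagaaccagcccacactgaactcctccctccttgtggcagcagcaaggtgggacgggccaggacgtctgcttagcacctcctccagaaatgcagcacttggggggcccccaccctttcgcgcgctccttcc

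With the 50 bases after the start included, the GC content of these windows was 60.0% (Gad1), 61.3% (Gad2) and 63.3% (Slc32a1), against a median of 52.7% over all 32851 RefSeq mouse promoters of the same length, and they held 21, 14 and 17 CpG dinucleotides against a median of 7. The motifs AGATAA (the GATA type), CAGCTG (an E-box), TAATCC (the bicoid type to which PITX3 and OTX2 bind) and TAATTA (a general homeodomain motif) were searched on both strands, and they occur in 11.2%, 16.3%, 7.06% and 5.29% of all these promoters. The Gad1 window held 1 match, to TAATCC on the reverse strand (the capitals GGATTA above), and the Gad2 and Slc32a1 windows held none. A match of letters describes the window only. Promoters were matched for 7 of the 8 genes, all except Abat.

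Of 3455 wells, 2035 passed the filter of at least 2000 genes, at most 50000 counts and under 15% mitochondrial counts. VGAT P0 replicate 1 kept 44 of its 384 wells (324 had under 2000 genes and 16 over 50000 counts), and the other plates kept 171 to 305. It still counts as 1 of the 3 VGAT P0 plates in means over plates. The kept cells summed to between 1435919 and 5408710 counts per plate, so that 3 counts corresponded to 0.555 to 2.09 CPM (the count of a gene divided by its plate's total, per 1e6 counts), and the median per cell ran from 7043 to 33272. For shares of cells with a count, the counts of every cell were reduced by random draws to 4000, which left 1956 cells and left out 79 shallower ones. Summed levels of 4 neuronal markers (Stmn2, Tubb3, Snap25 and Rbfox3) were 3745 to 5157 CPM on all plates. Those of 6 dopamine neuron markers (Th, Slc6a3, Ddc, Slc18a2, Pitx3 and Nr4a2) were 62.6 to 143 CPM on the VGAT plates against 3135 and 2369 CPM on the VGAT+Pitx3 plates. The glutamate transporter gene Slc17a6 stood at 0 to 15.04 CPM on the VGAT plates (0% to 3.28% of thinned cells) and at 102 and 197 CPM on the VGAT+Pitx3 plates (30.1% and 44.2%), where all 3 glutamate neuron markers were detected. The 8 astrocyte and radial glia markers summed to 171 to 659 CPM on the VGAT plates (6 or 7 detected) and to 499.7 and 384 CPM on the VGAT+Pitx3 plates (7 and 8 detected, with Gfap at 0 at E16). Their part in the population differences was not tested. Pitx3 was found in none of the 1408 thinned VGAT cells and in 42.1% and 30.5% of VGAT+Pitx3 cells at E16 and P0. On 4 VGAT plates (E16 replicates 3 and 4, P0 replicates 1 and 3) the well names also carry the other stage. The sample labels were followed, and stage results are given with and without these plates.

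Levels of the synthetic enzymes divided the sorted populations. Gad1, the gene of GAD67, stood at 1151, 1209.8, 1101 and 954 CPM on the 4 VGAT E16 plates and at 999.6, 796 and 1185 CPM on the 3 VGAT P0 plates. On the VGAT+Pitx3 plates it stood at 14.5 CPM at E16 and 10.3 CPM at P0. The populations did not overlap, and even the lowest VGAT plate was far above both VGAT+Pitx3 plates. How many of all genes separate the populations in this way was not counted, here and for the genes below. A summed level cannot tell fewer cells with the gene from less RNA per cell, so shares of cells are given below it. In edgeR's quasi-likelihood fit over all 9 plates with stage as covariate, the log2 fold change of VGAT+Pitx3 against VGAT was -6.37 ± 0.25 (SE, adjusted p = 3.88e-10), or 83.0 times lower. In summed counts, 28715 Gad1 counts on VGAT plates stood against 87 on VGAT+Pitx3 plates, a ratio of CPM of 86.9 (95% counting interval 70.4 to 108). Such intervals, here and for Slc6a5 below, treat counts as independent and leave out the spread between cells and plates. Of the 87 counts, 52 lay in 1 well and 16 in another.

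Gad2, the gene of GAD65, went the other way in the plate sums, though not in all VGAT+Pitx3 cells (below). Its levels were 604, 545, 650.0 and 599 CPM on VGAT E16 plates, 518, 493 and 531 CPM on VGAT P0 plates, and 936 and 1045 CPM on the VGAT+Pitx3 plates at E16 and P0. Both VGAT+Pitx3 plates lay above every VGAT plate. The log2 fold change was 0.83 ± 0.12 (SE, edgeR, adjusted p = 2.69e-04), 1.78 times higher in VGAT+Pitx3. Of the 8 genes, 1 rose and 3 fell between the populations, against a background of 8.93% of 14624 tested genes (4.73% higher and 4.2% lower).

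The count ratio of Gad1 to Gad2 within a plate does not depend on how plates are scaled. It was 1.91, 2.22, 1.69 and 1.59 on VGAT E16 plates and 1.93, 1.61 and 2.23 on VGAT P0 plates, but 0.0155 and 0.00989 on the VGAT+Pitx3 plates at E16 and P0. Because counts were not set per length, the ratio serves only to compare plates, not the level of one gene with the other. The mean log2 ratio was 0.90 ± 0.20 (SD, n = 7) in VGAT and -6.33 ± 0.46 (SD, n = 2) in VGAT+Pitx3, a 151-fold difference (two-sided exact permutation test p = 0.0278, the smallest that 2 against 7 plates allow). In thinned sums the difference was 238-fold, with the same exact permutation p. Without either VGAT+Pitx3 plate the smallest possible p was 0.125. Between the stages the VGAT ratio differed by 0.05 on the log2 scale (exact permutation p = 0.771, smallest possible 0.0286).

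**Figure D1:**
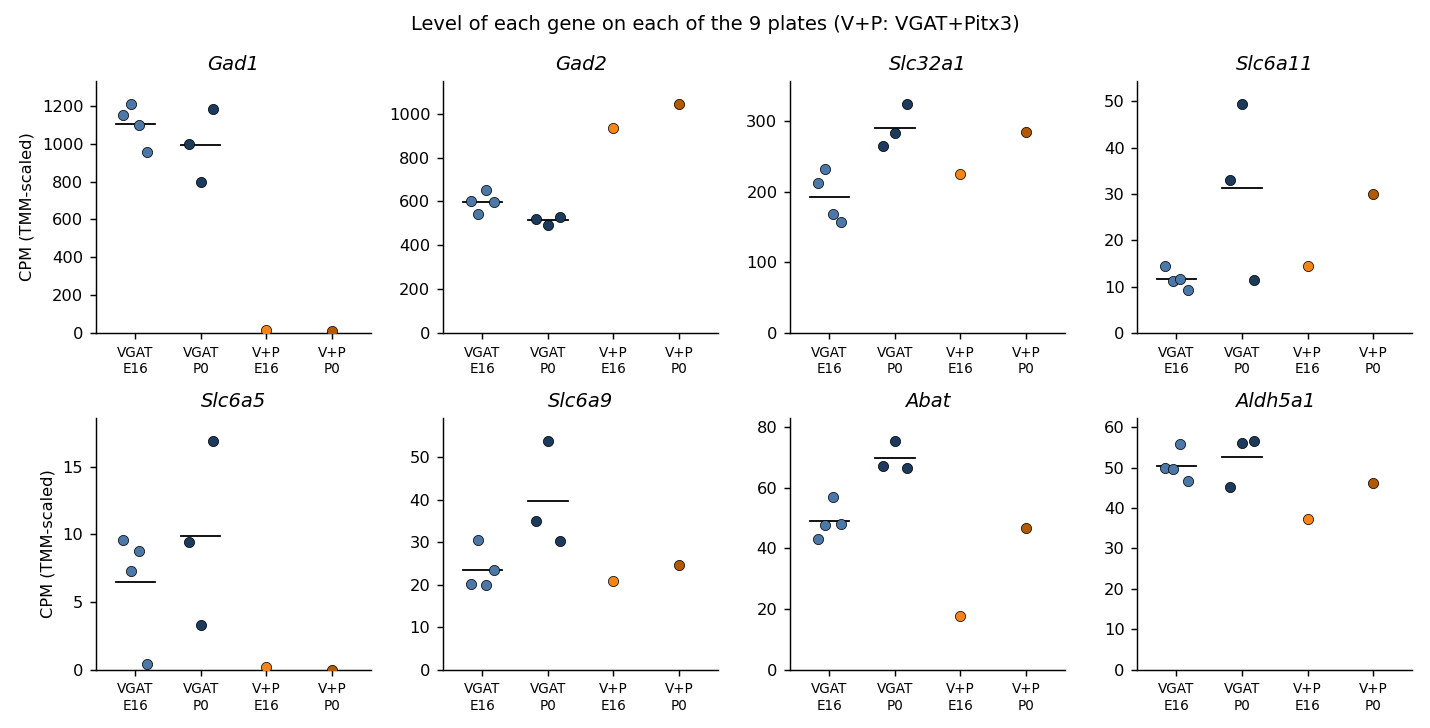
Level of each of the 8 genes on each of the 9 plates, in CPM after TMM scaling (vertical axes are linear and start at 0). Points are plates and horizontal bars are means of groups with several plates. The 2 VGAT+Pitx3 plates sit at 14.5 and 10.3 CPM for Gad1 and at 936 and 1045 CPM for Gad2, outside the range of the VGAT plates for both genes.

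Slc32a1, the vesicular transporter, showed no such division. It stood at 212, 232, 169 and 158 CPM on VGAT E16 plates, at 266, 283 and 325 CPM on VGAT P0 plates, and at 225 and 285 CPM on VGAT+Pitx3 plates at E16 and P0. Within each stage the VGAT+Pitx3 plate lay inside the range of the VGAT plates. The log2 fold change between populations was 0.10, with a 95% interval from -0.23 to 0.43 (edgeR, adjusted p = 0.822). Since the gate rests on this gene in both populations, its presence in both is not a finding.

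Single cells carried the same division. After thinning to 4000 counts, 1313 of 1408 VGAT cells had a Gad1 count (92.3% ± 3.13, SD over 7 plates), and the plates ran from 86.0% to 95.2%. On the VGAT+Pitx3 plates 4 of 299 cells at E16 (1.34%, exact 95% Clopper-Pearson interval 0.366 to 3.39) and 3 of 249 at P0 (1.20%, 0.249 to 3.48) had one. For comparison, the dopamine genes Th and Slc6a3 had a count in 0% to 2.96% and 0% to 1.78% of cells on the VGAT plates, which are other libraries and give no background for Gad1 itself. Gad2 was found in 81.4% ± 3.82 of VGAT cells (SD, n = 7) and in 61.2% (55.4 to 66.8) and 67.5% (61.3 to 73.3) of VGAT+Pitx3 cells at E16 and P0. At 2 or more counts the VGAT+Pitx3 plates stood at 54.2% and 56.2%, inside the range of the VGAT plates (50.5% to 65.1%). A thinned VGAT+Pitx3 cell held on average 3.90 Gad2 counts at E16 and 4.12 at P0, with a 90th percentile of 10 on both plates, whereas VGAT plates averaged 1.95 to 2.46 with a 90th percentile of 4 or 5. Slc32a1 was found in 53.3% ± 7.73 of VGAT cells (SD, n = 7) and in 51.8% and 51.4% of VGAT+Pitx3 cells. Intervals cover counting error only.

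The combinations of these 3 genes differed accordingly. Among VGAT cells, 41.8% ± 4.6 (SD, n = 7) had counts of all 3 genes and 34.6% ± 7.74 had Gad1 with Gad2, whereas 2.01% ± 0.793 had Gad2 with Slc32a1 and no Gad1. Among VGAT+Pitx3 cells, Gad2 with Slc32a1 and no Gad1 was found in 122 of 299 cells at E16 (40.8%, 35.2 to 46.6) and 109 of 249 at P0 (43.8%, 37.5 to 50.2). Gad2 alone was found in 19.1% and 22.9% of them, Slc32a1 alone in 10.7% and 7.23%, and none of the 3 genes in 28.1% and 24.9%. After thinning no VGAT+Pitx3 cell had Gad1 alone, against 7.21% ± 2.83 of VGAT cells. Without thinning 2 of 304 VGAT+Pitx3 cells at E16 (0.658%) and 0 of 271 at P0 had it, against 1.85% ± 1.11 of VGAT cells, and the share of VGAT cells with all 3 was 82.6%, so the smaller combinations depend on depth in both populations.

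**Figure D2:**
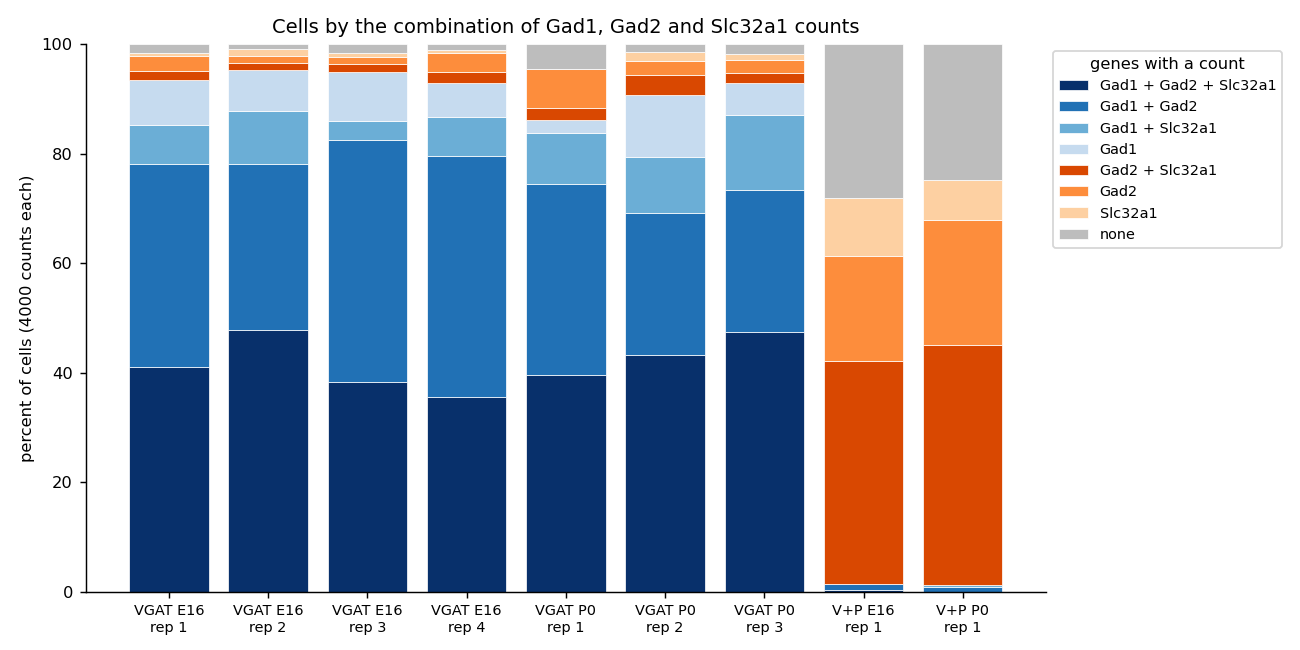
Share of cells (vertical axis, percent) on each of the 9 plates by which of Gad1, Gad2 and Slc32a1 had a count after thinning to 4000 counts per cell. Combinations with Gad1 (blue) fill most of each VGAT bar, and Gad2 with Slc32a1 (dark orange) makes up 40.8% and 43.8% of the VGAT+Pitx3 bars.

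The few Gad1 counts of the VGAT+Pitx3 plates were concentrated in single wells. Before thinning, 12 of 304 kept cells at E16 held the plate's 64 Gad1 counts, and 1 of them held 52. That well also held 4 Gad2, 6 Slc32a1, 7 Slc6a3, 2 Th and 5 Gata3 counts, and its total of 30368 counts was 2.19 times the plate median. At P0, 5 of 271 cells held 23 Gad1 counts, of which 16 lay in 1 cell with 23 Gad2 and 11 Slc32a1 counts and none of Slc6a3, Th or Pitx3, at 2.62 times the plate median. Without cells above 2 times their plate median, the log2 fold change of Gad1 was -8.43. Whether these wells held more than 1 cell was not tested.

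Within the VGAT+Pitx3 sort, Gad2 was unevenly spread over cells with and without the dopamine transporter gene Slc6a3. At E16, 39 of 149 cells with a Slc6a3 count had Gad2 (26.2%, 19.3 to 34.0) against 144 of 150 cells without one (96.0%, 91.5 to 98.5). At P0 the shares were 37 of 113 (32.7%, 24.2 to 42.2) and 131 of 136 (96.3%, 91.6 to 98.8). In CPM of the thinned sums, Gad2 stood at 289 and 1657 at E16 and at 308 and 1629 at P0 in cells with and without Slc6a3. The intervals of the shares did not overlap on either plate. The VGAT plates stood at 493 to 650.0 CPM after TMM scaling. Against them Gad2 was lower in cells with Slc6a3 and higher in cells without it, so the higher level of this sort was not shared by all its cells. Slc32a1 followed in the same direction, with 36.2% (28.5 to 44.5) against 67.3% (59.2 to 74.8) at E16 and 31.0% (22.6 to 40.4) against 68.4% (59.9 to 76.1) at P0. Split by Th, the tyrosine hydroxylase gene, Gad2 was found in 26.6% of cells with and 91.2% of cells without a count at E16, and in 48.4% and 87.6% at P0.

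Gad1 stayed near 0 in both classes, at 0.671% and 2.00% of cells with and without Slc6a3 at E16 and 1.77% and 0.735% at P0. Abat was found in 8.72% and 10.0% of these classes at E16 and in 14.2% and 19.9% at P0, with overlapping intervals. Each stage had 1 plate, so these are values without a test between stages, and a cell without a Slc6a3 count at 4000 counts may still have expressed the gene. With the class drawn at 2 or more Slc6a3 counts the mean difference in Gad2 share was 71.9 percentage points, against 66.7 with 1 count.

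**Figure D3:**
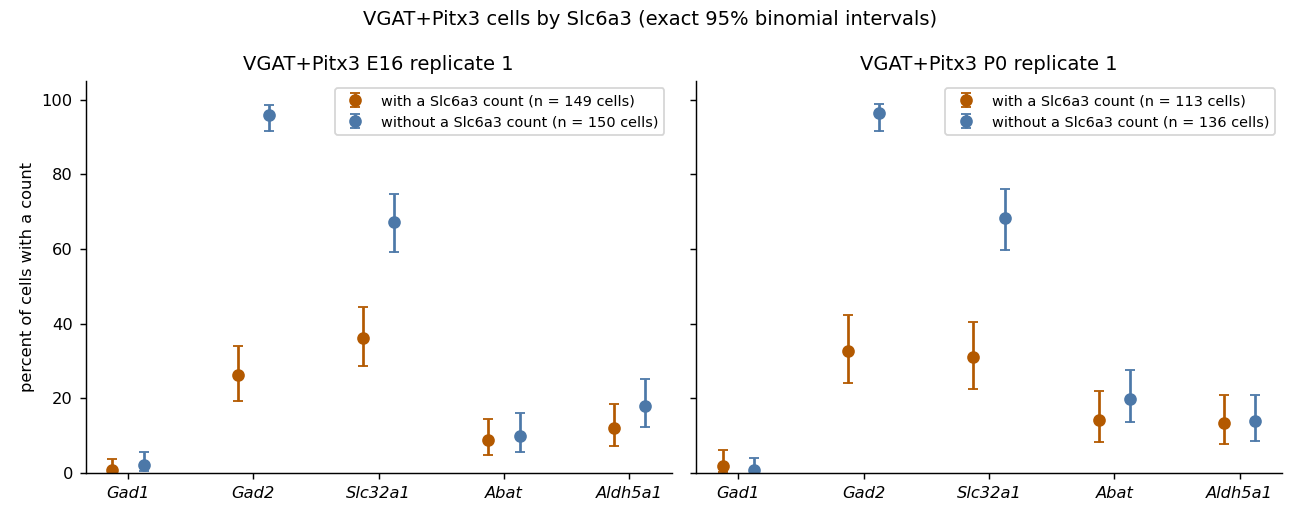
Percent of VGAT+Pitx3 cells with a count of each gene (vertical axis), split by whether the cell had a Slc6a3 count, at E16 (left) and P0 (right). Bars are exact 95% binomial intervals. Gad2 stands at 26.2% against 96.0% at E16 and at 32.7% against 96.3% at P0, while Gad1 lies near 0 in both classes.

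The remaining population differences concerned uptake and breakdown. Slc6a5, the glycine transporter of glycinergic neurons, stood at 9.61, 7.29, 8.75 and 0.397 CPM on VGAT E16 plates and at 9.42, 3.33 and 16.9 CPM on VGAT P0 plates, against 0.226 CPM (1 count) and 0 on VGAT+Pitx3 plates. The populations did not overlap, although E16 replicate 4 was close to the VGAT+Pitx3 values. In all, 204 counts on VGAT plates stood against 1 on VGAT+Pitx3 plates, a ratio of CPM of 53.7 (95% counting interval 9.53 to 2131), and the fall passed the test (edgeR, adjusted p = 0.0234) but not without either VGAT+Pitx3 plate (adjusted p = 0.192 without the E16 and 0.193 without the P0 plate). After thinning, 29 of 1408 VGAT cells had a Slc6a5 count (2.30% ± 1.53, SD, n = 7), whereas 0 of 299 and 0 of 249 VGAT+Pitx3 cells did, which allows shares of cells with a count of up to 1.00% and 1.20% (3 counts of the total) and sets no limit on cells that express the gene.

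Abat, the transaminase that starts GABA breakdown, stood at 43.1 to 56.9 CPM on the VGAT E16 plates (median 47.8) and at 67.3, 75.5 and 66.6 CPM on the VGAT P0 plates. The VGAT+Pitx3 plates stood at 17.9 CPM at E16, below every VGAT plate, and at 46.6 CPM at P0, below the 3 VGAT P0 plates and within the VGAT E16 range. The fall between populations was -1.01 ± 0.19 on the log2 scale (SE, edgeR, adjusted p = 0.00307). The call was lost without the VGAT+Pitx3 E16 plate (log2 fold change -0.59, adjusted p = 0.194) but not without the P0 plate (-1.46, adjusted p = 8.86e-04), and in thinned sums it missed the threshold (adjusted p = 0.0519).

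Aldh5a1, the dehydrogenase that follows, stood between 45.1 and 56.6 CPM on the 7 VGAT plates and at 37.3 and 46.2 CPM on the VGAT+Pitx3 plates. Its log2 fold change was -0.33 (95% interval -0.64 to -0.02, adjusted p = 0.234 in edgeR). Slc6a9 (20.8 and 24.7 CPM in VGAT+Pitx3) and Slc6a11 (14.5 and 30.1 CPM) were not called either, with log2 fold changes of -0.39 (adjusted p = 0.463) and 0.17 (adjusted p = 0.888) in edgeR. Over the 8 genes the median log2 fold change between populations was -0.36, against 0.00 over all genes tested.

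**Figure D4:**
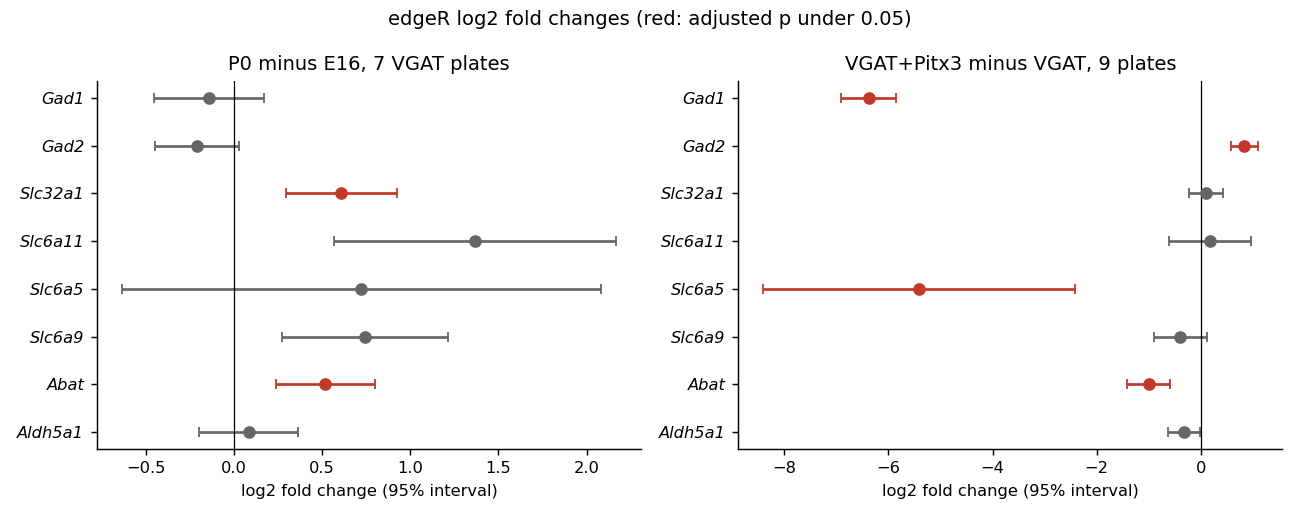
Log2 fold changes from edgeR with 95% intervals for the 8 genes, between stages in VGAT plates (left, P0 minus E16) and between populations (right, VGAT+Pitx3 minus VGAT). Red points had an adjusted p under 0.05. Gad1 lies at -6.37 and Gad2 at 0.83 in the population panel, and Slc32a1 at 0.61 and Abat at 0.52 in the stage panel.

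Between E16 and P0, 2 of the 8 genes rose in VGAT cells and none fell, against a background of 4.58% of 13639 tested genes (2.84% higher and 1.74% lower). Slc32a1 rose by 0.61 ± 0.15 on the log2 scale (SE, edgeR, adjusted p = 0.0367), from 193 ± 35.2 CPM (SD, n = 4) to 291 ± 30.3 CPM (SD, n = 3). Abat rose by 0.52 ± 0.13 (SE, edgeR, adjusted p = 0.0416), from 48.9 ± 5.75 to 69.8 ± 4.99 CPM. For both genes every P0 plate lay above every E16 plate, but how many of all genes separate in this way was not counted. The P0 plates differed in depth. Replicate 1 kept 44 of 384 wells, at a median of 33272 counts per cell. Replicate 2 had a median of 7043, against 15608 to 22588 on the E16 plates. Replicate 2 also had the highest Abat level (75.5 CPM) and the highest sum of glial markers (659 CPM). The part of these features in the rises was not tested. Both calls were near the threshold. Abat lost its call without any 1 of the 7 plates (adjusted p 0.0572 to 0.126), and Slc32a1 lost it without E16 replicate 1, 3 or 4 or P0 replicate 2 or 3 (adjusted p 0.0619 to 0.135). In thinned sums neither was called (log2 fold change 0.51, adjusted p = 0.0898 for Slc32a1 and 0.17, adjusted p = 0.682 for Abat).

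The 2 decarboxylase genes were not called between stages. Gad2 had a log2 fold change of -0.21 (95% interval -0.45 to 0.03, edgeR, adjusted p = 0.261), although all 3 P0 plates (493 to 531 CPM) lay below the 4 E16 plates (545 to 650.0 CPM). Gad1 had -0.14 (-0.45 to 0.17, adjusted p = 0.594) and its stages overlapped. Aldh5a1 had 0.08 (-0.20 to 0.37, adjusted p = 0.744).

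Among the transporters, Slc6a11 stood at 14.5, 11.2, 11.6 and 9.32 CPM at E16 and at 33.0, 49.4 and 11.4 CPM at P0, so that P0 replicate 3 lay inside the E16 range (log2 fold change 1.37, edgeR, adjusted p = 0.0552). It had a count in 11.9% of thinned cells on P0 replicate 2 and in 0.592% on P0 replicate 3. Without P0 replicate 2 its log2 fold change was 0.80 (adjusted p = 0.254), and without P0 replicate 3 it was 1.84 (adjusted p = 0.0287). It also passed the threshold in DESeq2 (adjusted p = 0.0119), with exonic counts (0.0466) and with no filter on low counts (1.04e-06), and stood at 0.92 in thinned sums (0.358). Slc6a9 stood at 20.2, 30.5, 20.0 and 23.4 CPM at E16 and at 35.0, 53.9 and 30.4 CPM at P0 (log2 fold change 0.74, edgeR, adjusted p = 0.0686). Its lowest P0 plate lay just under its highest E16 plate, and without P0 replicate 2 the log2 fold change was 0.45 (adjusted p = 0.268). It passed the threshold without E16 replicate 2 (0.90, adjusted p = 0.0335) and with no filter on low counts (0.66, adjusted p = 0.0113). Both genes are also expressed by glia, and the summed level of 8 astrocyte and radial glia markers was 205 to 244 CPM at E16 and 171, 659 and 259 CPM on P0 replicates 1, 2 and 3, with 6 or 7 of the 8 markers detected on each plate. Of the defining astrocyte markers, Aqp4 was at 0 on every VGAT plate but E16 replicate 4 (0.392 CPM) and P0 replicate 2 (37.9 CPM, 5.15% of cells), and Gfap was at 0 on every VGAT plate but E16 replicate 3 (0.185 CPM). The part of these cells in the Slc6a11 and Slc6a9 values was not tested.

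Without the 4 plates whose well names carry the other stage, 2 E16 plates and 1 P0 plate remained, and the lone P0 plate was assumed to vary like the others. Abat was still called (log2 fold change 0.73, edgeR, adjusted p = 0.0425), Slc32a1 was not (0.35, adjusted p = 0.195), and Slc6a11 (1.95, adjusted p = 0.00396) and Slc6a9 (1.07, adjusted p = 0.0404) passed the threshold. The remaining P0 plate is replicate 2, which has the highest glial marker sum. Slc6a5 turned from 0.72 (adjusted p = 0.518) to -1.32 (adjusted p = 0.191). All 4 population calls remained on the 5 plates left.

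The design gave little room to show whether a stage difference depends on the population. On counts simulated with the same spread between plates for every gene, the interaction test recovered 0% of genes changed by 1 on the log2 scale. It recovered 15% of those changed by 2. In the fit itself the SE of the interaction ran from 0.23 (Gad2) to 6.19 (Slc6a5), so these rates are not the power for each of the 8 genes. The interaction of stage and population was called for 0 of the 8 genes and for 0 of 15724 genes in edgeR (0% background), where 998 genes had an unadjusted p under 0.05 and DESeq2 called 4 genes. Abat had the lowest unadjusted p of the 8 (interaction 0.87 on the log2 scale, unadjusted p = 0.0126, edgeR, adjusted p = 0.773). With 1 VGAT+Pitx3 plate per stage, the test takes their spread from the VGAT plates.

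Among VGAT cells, Gad2 and Slc32a1 were found more often beside Gad1 on every plate, but none of the 12 pairs compared passed the test after adjustment. Gad2 had a count in 82.8% of cells with and 63.2% of cells without a Gad1 count, a difference of 19.6 ± 8.86 percentage points (SD over plates) that was positive on 7 of 7 plates. Slc32a1 was found in 54.7% of cells with and 40.0% of cells without Gad1, a difference of 14.7 ± 13.6 points, also positive on 7 of 7 plates. This difference depended on the setting, with 2.64 points at 8000 counts per cell and 1.96 with exonic counts (adjusted p = 1.0 for both) and 18.9 without thinning, and that of Gad2 was 38.4 points without thinning (adjusted p = 0.75 for both). The two-sided exact sign-flip permutation p was 0.0156 for each, the smallest that 7 plates allow, and 0.0938 after Benjamini-Hochberg adjustment over the 12 pairs compared. Since the smallest possible p did not pass after adjustment, the test could not decide for these 2 pairs. Pairs usable on fewer plates could not fall below 0.125 (4 plates) or 0.0625 (5 plates) before adjustment. Cells without a Gad1 count were few, between 6 and 21 per plate. Slc32a1 by Gad2 differed by 3.98 points (exact permutation p = 0.359, positive on 4 of 7 plates). For the consecutive enzymes Abat and Aldh5a1, Aldh5a1 was found in 17.97% of cells with and 19.3% of cells without Abat (exact permutation p = 0.703).

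VGAT cells with a Slc6a5 count had lower levels of both decarboxylase genes. Counts of thinned cells were summed per plate over the 25 cells with Slc6a5 on the 4 plates with at least 5 of them (E16 replicates 1 to 3 and P0 replicate 3, with 7, 5, 5 and 8 cells). Gad1 stood at 452, 347, 773 and 993 CPM in cells with Slc6a5 and at 1295, 1395, 1252 and 1431 CPM in cells without it. Gad2 stood at 301, 297, 96.6 and 298 CPM against 675, 628, 740.4 and 643 CPM. On all 4 plates both genes were lower in the Slc6a5 cells. In edgeR with plate as block, Gad2 differed by -1.41 ± 0.33 (SE, adjusted p = 0.00250) and Gad1 by -1.10 ± 0.28 (SE, adjusted p = 0.0107), 2 of the 5 members tested, against a background of 1.39% of 6973 genes (0.99% lower). Neither was called by DESeq2 (adjusted p 0.265 and 0.469) or with exonic counts (0.261 and 0.103), and Gad1 was not called without E16 replicate 1 or 2 (adjusted p 0.329 and 0.468). Gad1 also lost its call without the plate block, so it was lost under 5 of 9 alternatives.

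In shares of cells, Gad1 was found in 83.3% of Slc6a5 cells against 94.4% of other cells, and Gad2 in 51.3% against 82.4%, lower on 4 of 4 plates for both (exact permutation p = 0.125, the smallest that 4 plates allow). Without thinning, which also changes which cells count as Slc6a5 cells, the differences were -0.25 and -0.20 percentage points. Slc32a1 was found in 54.3% of Slc6a5 cells and 54.2% of others.

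Of the genes that differed in Slc6a5 cells, the 5 with the largest rises were Lamp5 (532 against 46.0 CPM, log2 fold change 3.41), Mab21l2 (2.71), Pde1c (2.496), Nuak1 (2.30) and Hs6st2 (2.24), with adjusted p from 3.82e-17 to 2.37e-04 in edgeR. Lamp5 encodes a membrane protein of inhibitory nerve terminals and Mab21l2 a developmental regulator. Tcf7l2, Zfp804b, Otx2os1, Zeb2 and Otx2 had no count in the 25 Slc6a5 cells, against 445, 288, 157, 145 and 129 CPM in the other cells. Measured against a floor of 3 counts over these cells (30.01 CPM), they were at least 15.1, 9.23, 5.22, 5.02 and 4.27 times lower. These bounds use counts summed over the plates (1551 for Tcf7l2 to 437 for Otx2, of 3412000 in the other cells), whereas the levels are means over plates. Otx2 and Tcf7l2 are transcription factors of the midbrain and diencephalon, and Otx2os1 lies beside Otx2.

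The genes whose counts followed the members most closely over the 1408 thinned VGAT cells were weakly correlated with them. The Pearson correlation of log counts, centred per plate, was highest with Esrrg (0.176), Cdh6 (0.174) and Ndst3 (0.162) for Gad1, and with Gad1 (0.148), Zfhx4 (0.132) and Il1rapl2 (0.121) for Gad2. For Slc32a1 it was highest with Tubb2a (0.132), Vgf (0.132) and Reep5 (0.129). For Slc6a5 it was highest with Lamp5 (0.333), Mab21l2 (0.266) and Nuak1 (0.174). Cells of a plate share the library and the values are sparse, so these 12 values among 9562 genes are a description only.

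Across regional kinds of VGAT neuron, defined by a count of a transcription factor gene that is no member, 1 of the 8 genes was called in 1 of 6 fits. In cells with Pax5, a marker of GABA neurons of the substantia nigra pars reticulata, Abat was higher on 5 of 6 plates, with 109, 25.8, 104, 110.3, 97.4 and 147 CPM against 57.2, 54.1, 41.2, 54.9, 71.3 and 53.8 CPM in other cells on E16 replicates 1 to 4 and P0 replicates 2 and 3. The log2 fold change was 0.82 ± 0.23 (SE, edgeR with plate as block, adjusted p = 0.0244), 1 of the 6 members tested, against a background of 4.61% of 7964 genes (2.25% higher). The call was lost without E16 replicate 3 (0.63, adjusted p = 0.381) or 4 (0.74, adjusted p = 0.211), in DESeq2 (adjusted p = 0.366), with no filter on low counts (0.0989), with exonic counts (0.0694) and without the plate block (0.120), that is under 6 of 11 alternatives. Over the 6 regional fits together, 1 of 34 member tests (2.94%) was called against 3.05% of 41799 gene tests, so the share of calls among members was near the background. In cells with Six3, another marker of this nucleus, Gad1 stood at 1268 ± 293 against 1057 ± 108 CPM (SD, n = 7), and in cells with Otx2 at 1401 ± 266 against 1165 ± 153 CPM (SD, n = 7). Both differences were positive on 6 of 7 plates and were not called (log2 fold change 0.25 and 0.27, edgeR, adjusted p = 0.0890 and 0.0593). Gad1 passed the threshold under 3 of 12 alternatives in Six3 cells, which were exonic counts (adjusted p = 0.0172), at least 2 counts of the marker (0.0103) and without P0 replicate 2 (0.0492), and under 2 of 12 in Otx2 cells, exonic counts (2.64e-04) and without P0 replicate 2 (0.0289). None of the 5 or 6 members tested was called in cells with Six3, Otx2, Nkx2-2, Dlx1 or Pax7 (Slc6a5 and Slc6a11 were tested in none of them), where the background was 2.23%, 5.57%, 2.47%, 1.52% and 2.43% of genes. On counts simulated with the same spread for every gene, these fits recovered between 3% (Pax7) and 69% (Otx2) of genes changed by 1 on the log2 scale. For Hox genes only 1 plate held at least 5 cells, so no fit was made.

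**Figure D5:**
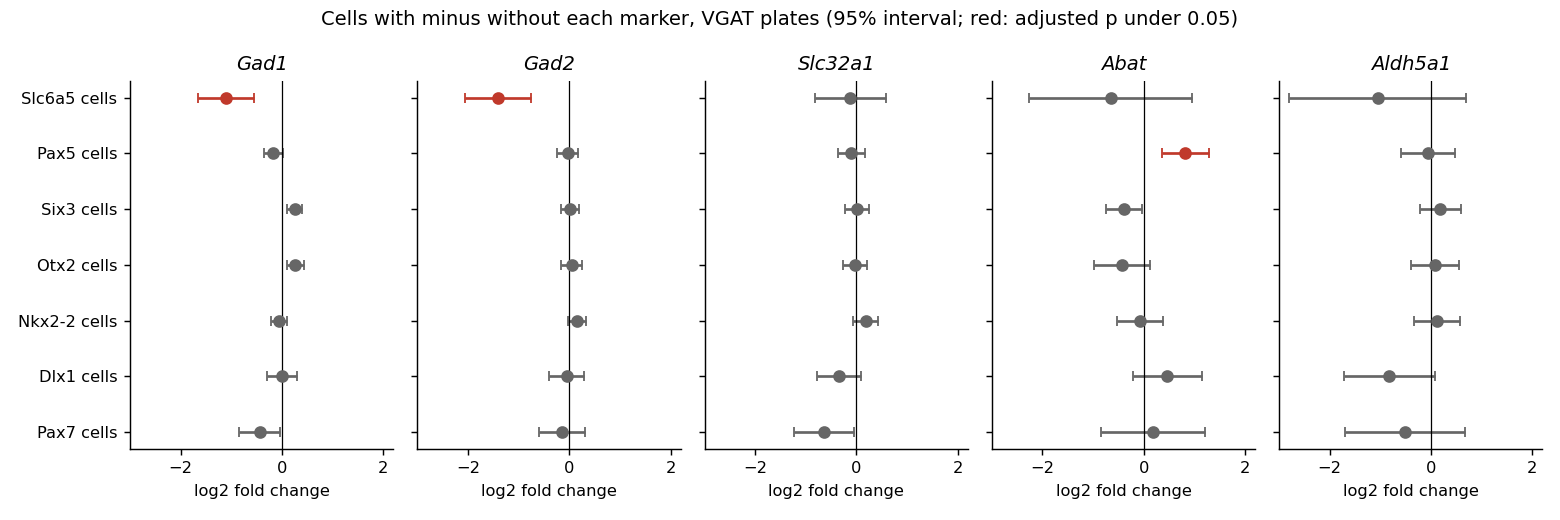
Log2 fold change (horizontal axes, edgeR with 95% intervals) of Gad1, Gad2, Slc32a1, Abat and Aldh5a1 between VGAT cells with and without a count of each marker gene. Red points had an adjusted p under 0.05 and are Gad1 (-1.10) and Gad2 (-1.41) in Slc6a5 cells and Abat (0.82) in Pax5 cells.

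Of 25 other genes of GABA and glycine handling, 21 were tested between populations, of which 2 rose and 2 fell, against a background of 8.93% of all genes tested (4.73% higher and 4.2% lower). The glycine receptor subunit genes Glra2 (log2 fold change -1.53, adjusted p = 8.19e-06) and Glra1 (-1.71, adjusted p = 0.0223) fell in edgeR. Aldh1a1, an aldehyde dehydrogenase of a group of dopamine neurons that can also yield GABA, stood at 0.246 to 2.22 CPM on VGAT plates and at 2189.6 and 1738 CPM on VGAT+Pitx3 plates (log2 fold change 11.01, edgeR, adjusted p = 2.69e-13). Slc18a2, the vesicular monoamine transporter, rose by 6.22 on the log2 scale (edgeR, adjusted p = 3.82e-10). Slc18a2 is also 1 of the dopamine markers named above, and the gate selects such cells.

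Between stages 18 of the 25 genes were tested, of which 1 was called, a share near the background of 4.58% of all genes tested, so the count says nothing particular of the list. Slc38a2, a glutamine transporter, stood at 205 to 253 CPM at E16 and at 159, 119 and 159.7 CPM at P0, and fell by 0.57 ± 0.13 (SE, edgeR, adjusted p = 0.0357). The median log2 fold change of the 18 genes was 0.015, against 0.56 for the 8 members and 0.016 for all genes.

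Part of each value rests on counts in introns. On VGAT plates the exonic share of counts was 99.96% for Slc32a1, 97.9% for Aldh5a1, 95.5% for Slc6a9, 89.3% for Gad1, 83.0% for Abat and 70.3% for Gad2, against 74.6% over all genes. It was lowest for Slc6a5 (63.1% ± 20.8, SD, n = 7) and Slc6a11 (60.8% ± 15.04), which also had the fewest counts. For Gad2 the share was 69.9% on VGAT+Pitx3 plates, and with exonic counts alone Gad1, Gad2, Slc6a5 and Abat each still passed the population test.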

How the data were processed

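The deposited tables hold 1 column per well. The authors aligned reads with STAR to mm10 and counted exonic, intronic and combined barcodes per gene, and the deposited values are expected counts, that is estimated counts after correction for barcode collisions (100.0% of nonzero values lay within 0.001 of whole numbers once the correction was undone). The combined table was used, and exonic counts served as an alternative. Wells were filtered, their expected counts summed per plate and rounded, ERCC spike-ins and mitochondrial genes left out, and levels given as CPM after TMM scaling.

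Tests used edgeR 4.0.16 (filterByExpr, quasi-likelihood, Benjamini-Hochberg over all genes tested, threshold 0.05) in R 4.3.3, with DESeq2 1.42.0 as an alternative. Exact permutation tests were run in Python 3.11.15 with numpy 2.4.6, and exact binomial intervals came from scipy 1.17.1. Values ± are SD or SE as stated. Cell-level values used cells thinned once to 4000 counts, and marker classes needed at least 5 cells per plate. No doublet caller was run. As an alternative, cells above 2 times their plate's median count were left out. No 2 kept wells had identical counts. Other alternatives were RLE factors, no filter on low counts, thinned sums, the replicate number as block, and each plate left out.

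The genes, the pathway list of 25 other genes and the markers were chosen with earlier results of these data known. All 8 genes are named. A further item of the pathway list is not reported here. From the pathway list up to 5 called genes per direction are named by adjusted p, in Slc6a5 cells the 5 largest changes per direction that were called and went 1 way on every plate, and for 4 members the 3 genes with the highest correlation. Counts were simulated with the same spread between plates for every gene, so the rates are not the power for a given member. On them the stage test recovered 43% of genes changed by 1 on the log2 scale and 92% of those changed by 2. The population test recovered 39% and 96%, the interaction test 0% and 15%, and the test in Slc6a5 cells 1% and 39%.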

Additional observations from a re-analysis of the deposited data

How the results depend on the processing

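Of the population calls, Gad1 and Gad2 kept direction and threshold under all 17 alternatives (log2 fold change -8.43 to -6.26 and 0.64 to 1.01), Slc6a5 lost its call without either VGAT+Pitx3 plate, and Abat lost it without the VGAT+Pitx3 E16 plate, in thinned sums and with the replicate block. In the stage comparison 2 members and 624 genes were called. This fell to 1 member without cells above 2 times the plate median, 0 with thinned sums (328 genes), 0 with the replicate block (210 genes) and 0 to 2 with 1 plate left out (76 to 833 genes), and DESeq2 called 959 genes and no filter 1588. Without P0 replicate 3 only 76 genes were called. The replicate numbers do not pair plates, since same-numbered E16 and P0 plates correlated at 0.003, 0.064 and 0.032 in their deviations from the group means. The block left 3 of the 4 population calls, with Abat at an adjusted p of 0.0562. Of the 4 population calls (1306 genes), thinned sums kept 2 (Abat had an adjusted p of 0.0519, and Slc6a5 did not pass the filter on low counts and was not tested) and leaving out 1 plate 2 to 4 (625 to 1397 genes). For the interaction, no filter called 66 genes and DESeq2 4.

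The stage change of Slc6a5, which was not called, ran from -0.055 (without P0 replicate 3) to 1.098 with 1 plate left out and was -1.32 without the 4 plates named for the other stage. The population change of Slc32a1 ran from -0.047 (without the VGAT+Pitx3 E16 plate) to 0.22 with 1 plate left out. That of Slc6a11 was -0.058 with exonic counts, -0.069 with the replicate block and -0.23 without the 4 plates, and ran from -0.039 (without P0 replicate 3) to 0.42 with 1 plate left out. The Gad1 to Gad2 ratio between stages turned to -0.00197 with exonic counts and ran from -0.059 to 0.17 with 1 plate left out, and between populations it ran from -7.56 to -6.91 with 1 plate left out and was -7.90 in thinned sums.

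In Slc6a5 cells (2 members and 97 genes called), DESeq2 called 0 members and 26 genes, leaving out the plate block 1 and 46, exonic counts 0 and 17, and leaving out 1 plate 1 to 2 and 48 to 113. Over the marker-defined cells (1 member and 1276 genes over all fits), DESeq2 called 0 and 711, leaving out the plate block 0 and 556, and leaving out 1 plate 0 to 3 and 912 to 1340. Exonic counts and markers at 2 or more counts each gave 3 members. For Slc6a5 cells at 2 or more counts no fit could be made.

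Shares of cells depend on depth. Thinned to 8000 counts, not thinned and at 2 or more counts, Gad1 was found in 97.3%, 98.7% and 80.8% of VGAT and 2.43%, 2.90% and 0.736% of VGAT+Pitx3 cells. Slc32a1 was found in 77.3%, 86.2% and 24.3% of VGAT and 66.7%, 69.7% and 27.3% of VGAT+Pitx3 cells, Gad2 in 93.9%, 94.9% and 58.7% of VGAT cells, and Slc6a5 in 3.97%, 5.88% and 0.354% of VGAT cells. Gad2 was found in 74.2% of VGAT+Pitx3 cells without thinning and in 55.2% at 2 or more counts. The difference between VGAT+Pitx3 cells without and with Slc6a3 was 66.7 points for Gad2 (45.4 without thinning, 71.9 with Slc6a3 at 2 or more counts) and 34.3 points for Slc32a1 (29.4 and 39.7). The cause of these changes was not tested.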
